A study of Mus musculus with 10 samples.

Results

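Glycerolipids and phospholipids are built from glycerol 3-phosphate by enzymes that add fatty acids and then head groups, and 39 mouse genes encoding these enzymes were followed in the brains of Snx14-KO and control mice. The genes were picked by symbol from the mouse GENCODE annotation as the enzymes of the acylation, phosphatidate, triglyceride, cardiolipin, phosphatidylserine, choline and ethanolamine steps. All 39 were found among 55536 mouse gene entries, and all 39 had enough counts to be tested in every comparison. In this pathway, acyltransferases make lysophosphatidic and phosphatidic acid, and lipins remove the phosphate to give diacylglycerol. Diacylglycerol then becomes triglyceride for lipid droplets, or phosphatidylcholine and phosphatidylethanolamine through the Kennedy pathway, whereas phosphatidic acid activated with CTP leads to phosphatidylinositol and cardiolipin. SNX14 is a sorting nexin of the endoplasmic reticulum that is found at contacts with lipid droplets.

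RNA-seq was done on cerebellum and cortex of 5 mice at 1 year of age, with both tissues taken from each animal, giving 10 libraries. The 2 KO mice were homozygous for a frameshift mutation in exon 14 of Snx14, made with Cas9 on the C57BL/6J background, so the loss was constitutive and not limited to 1 cell type. The 3 controls were a mixed group, since controls 1 and 2 were heterozygous (Het) and control 3 was wild-type (WT). Each library came from 1 mouse, so within 1 tissue the p-values below measure the spread between these mice. In the comparisons between tissues, the main tests took the 2 libraries of a mouse as independent. Their p-values therefore do not measure how the tissue difference varied from mouse to mouse. In such bulk tissue, fewer cells of a type and less RNA per cell cannot be told apart.

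The libraries held 16088310 to 22975355 counts in mouse genes. Snx14 itself was measured at 42.8, 39.9 and 73.2 CPM (counts scaled to a common library size) in the cerebella of the 3 controls, the last being the WT mouse, against 15.5 and 17.4 in KO cerebellum, and at 34.3, 34.9 and 50.8 in control cortex against 14.8 and 16.1 in KO cortex. The KO libraries were below every control in both tissues, and the WT mouse was above both Het mice. The log2 change of Snx14 was -1.66 in cerebellum (SE 0.256, edgeR adjusted p = 0.0140, and 0.0989 or 0.0638 without KO 1 or KO 2) and -1.36 in cortex (SE 0.192, edgeR adjusted p = 0.754, DESeq2 adjusted p = 1.54e-06, and 0.00207 in edgeR without control 2). Tissue labels matched their markers, with 10 granule cell markers summing to 4751 to 5606 CPM in cerebellum and 197 to 239 in cortex. Cell-type markers also differed between libraries of 1 tissue. The summed level of 10 Purkinje cell markers was 9025 to 10664 CPM in control cerebellum and 4527 to 4653 in KO cerebellum, and all 10 were called lower. The 10 astrocyte markers summed to 5676 to 6153 CPM in control and 6508 to 6792 in KO cerebellum, with 4 called higher, and the 10 microglia markers to 152 to 181 and 238 to 243 CPM, with 2 called higher. Choroid plexus markers summed to 63.4 CPM in KO 1 cerebellum and to 1209 to 3428 in the other 4 cerebellum libraries. Cortex control 2 stood apart from the other cortex libraries, with 4491 CPM of 10 striatal neuron markers against 609 to 2025 and with 9055 CPM of 10 oligodendrocyte markers against 4899 to 5350. The striatal sums also differed by genotype, at 1840 to 4491 CPM in control cortex and 609 to 1148 CPM in KO cortex. No marker of these lists was at 0 in every library of a group, and the part of these cells in the results below was not tested.

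Levels of different genes were compared on a scale corrected for gene length and library total (TPM). In control cerebellum the highest members were Cds2, a CDP-diacylglycerol synthase, at 177 ± 22.3 TPM (SD, n = 3), its paralog Cds1 at 108 ± 13.2 and the lysophosphatidic acid acyltransferase Agpat3 at 106 ± 8.08. In control cortex Cds2 again led at 150 ± 38.9 TPM, followed by the lysophospholipid acyltransferase Lpcat4 at 126 ± 6.56. The SDs of Cds1 and Agpat3 overlapped in cerebellum, as did those of Cds2 and Lpcat4 in cortex, so these neighbors in the order were not separated by the spread between mice. At the low end of control cerebellum were Agpat2 at 1.88 ± 0.384 TPM, Lpin3 at 2.25 ± 0.360, Mboat1 at 2.49 ± 0.0913, the ethanolamine kinase Etnk2 at 2.51 ± 1.16 and the phosphatidylethanolamine methyltransferase Pemt at 3.00 ± 0.583.

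**Figure D1:**
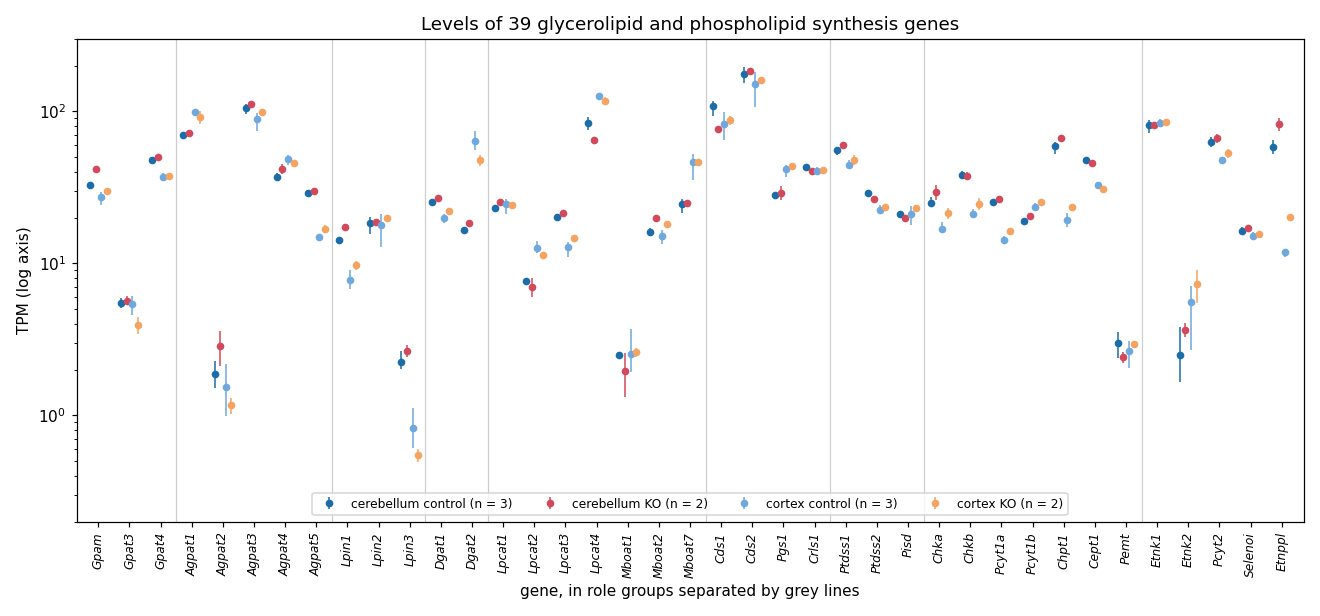
TPM on a log axis for each of the 39 genes, in role groups separated by grey lines. Points are means of 3 control or 2 KO libraries and bars run from the lowest to the highest library. Cds2 is the highest member in all 4 groups, and most groups of points for a gene lie close together compared with the distances between genes.

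Summed over the genes of a role, the CDP-diacylglycerol and cardiolipin branch was highest in control cerebellum at 356 ± 37.9 TPM (n = 3), ahead of the 5 lysophosphatidic acid acyltransferases at 244 ± 8.33. The 5 ethanolamine genes at 222 ± 10.4 TPM and the 7 choline genes at 218 ± 5.56 TPM lay within their SDs of each other. The ethanolamine sum includes Etnppl at 58.7 ± 6.41 TPM, whose enzyme breaks down phosphoethanolamine, so the 2 sums do not compare synthesis genes alone. The 3 lipins were lowest at 34.8 ± 2.83 TPM. In control cortex the CDP-diacylglycerol and cardiolipin branch again gave the highest sum, 315 ± 59.9 TPM, and the lipins the lowest, 26.4 ± 5.52 TPM. Etnk1, the higher of the 2 ethanolamine kinases, was at 81.6 ± 8.59 TPM in control cerebellum, and Pcyt1a and Pcyt2, the rate-limiting CTP-dependent enzymes of the choline and ethanolamine arms, were at 25.5 ± 0.639 and 62.7 ± 4.69 TPM.

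To ask whether loss of SNX14 altered these transcripts, the genotypes were compared in 1 tissue at a time. In cerebellum 1 of the 39 genes was called at an edgeR adjusted p under 0.05 with a log2 change beyond 0.5 in either direction, and this was Cds1, which fell. Genes called lower made up 1.04% of the 19447 genes tested and genes called higher 0.514%, so a single call among 39 genes was near the background. With no minimum on the change 3 members passed the adjusted p, Cds1, Lpcat4 and Gpam, against 2.14% of all genes. At an unadjusted p under 0.05 there were 6 members against 13.4% of all genes, the 3 others being Etnppl, Mboat2 and Lpin1. The median log2 change was 0.04 over the 39 genes, of which 28 were above 0, and 0.00 over all genes.

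Cds1 (ENSMUSG00000029330.8, GRCm38 chromosome 5, 101765130 to 101823858, plus strand) makes CDP-diacylglycerol, the precursor of phosphatidylinositol and cardiolipin. It was measured at 138, 116 and 136 CPM in the control cerebella and at 90.9 and 93.7 CPM in the KO cerebella, and the groups did not overlap. The log2 change was -0.50 (SE 0.0840, 95% interval -0.69 to -0.31, adjusted p = 0.0204), which is a ratio of 0.706. The call lies at the edge of the fold minimum. With DESeq2's own test the log2 change was -0.498 with an adjusted p of 5.26e-05. That change was short of the fold minimum, so DESeq2 did not call Cds1. Leaving out control 1, control 3, KO 1 or KO 2 moved the adjusted p to 0.105, 0.100, 0.133 and 0.0900, whereas without control 2 the log2 change was -0.58 with an adjusted p of 0.00202. Cds2, which catalyses the same reaction, was at 537, 443 and 503 CPM in controls and 541 and 479 CPM in KO, with overlapping groups and a log2 change of 0.04 (95% interval -0.19 to 0.27). The next enzymes toward cardiolipin, Pgs1 and Crls1, had log2 changes of 0.02 and -0.10.

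Lpcat4 (ENSMUSG00000027134.4, chromosome 2, 112239468 to 112247111, plus strand) reacylates lysophospholipids. It was at 77.9, 67.5 and 71.9 CPM in controls and at 56.1 and 55.2 CPM in KO cerebellum, again with no overlap. Its log2 change of -0.39 (SE 0.0760, adjusted p = 0.0424) was under the fold minimum. The other lysophospholipid acyltransferases did not share a direction, as 4 of the 7 genes in the group had log2 changes above 0 and the group median was 0.01. Mboat2, which acylates lysophosphatidylethanolamine and related lipids, was at 46.1, 46.3 and 49.9 CPM in controls and 58.6 and 57.2 CPM in KO, a log2 difference of 0.28 (SE 0.0715, adjusted p = 0.106).

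Gpam (ENSMUSG00000024978.11, chromosome 19, 55067268 to 55127238, minus strand) encodes the mitochondrial glycerol 3-phosphate acyltransferase that starts the pathway. Its levels were 68.5, 66.3 and 65.4 CPM in control cerebellum and 86.2 and 82.9 CPM in KO cerebellum. Controls lay close together and both KO libraries were above them. The log2 change was 0.33 (SE 0.0607, adjusted p = 0.0301), under the fold minimum. Gpat4, the acyltransferase of the endoplasmic reticulum, showed a log2 change of 0.03 (95% interval -0.13 to 0.19), and the weakly expressed Gpat3 one of 0.05. For Gpam and Lpcat4 the adjusted p was over 0.05 when any library but control 2 was left out, between 0.119 and 0.173 for Gpam and between 0.153 and 0.193 for Lpcat4.

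Etnppl (ENSMUSG00000019232.14, chromosome 3, 130617448 to 130637521, plus strand) encodes the lyase that breaks down phosphoethanolamine and so drains the ethanolamine arm, and it is known as an astrocyte gene. It was at 145, 137 and 164 CPM in control cerebellum and at 228 and 186 CPM in KO cerebellum, with no overlap and with the higher value in KO 1. The log2 difference was 0.47 (SE 0.103) with an edgeR adjusted p of 0.0648, and DESeq2 gave 0.00187. Leaving out KO 2 raised the log2 difference to 0.60 (adjusted p = 0.0429), and leaving out KO 1 lowered it to 0.32 (adjusted p = 0.312). The 10 astrocyte markers had a median log2 change of 0.44 in the same libraries, with 8 of 10 above 0. The other genes of the ethanolamine arm had log2 changes of -0.03 for Etnk1, 0.06 for Pcyt2, 0.03 for Selenoi and 0.54 for the weakly expressed Etnk2 (SE 0.314, 95% interval -0.18 to 1.26), none called. Lpin1, a phosphatidate phosphatase named after its value was seen, was at 40.2, 42.9 and 43.7 CPM in controls and 49.3 and 52.9 CPM in KO (log2 difference 0.27, SE 0.0785, adjusted p = 0.163).

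**Figure D2:**
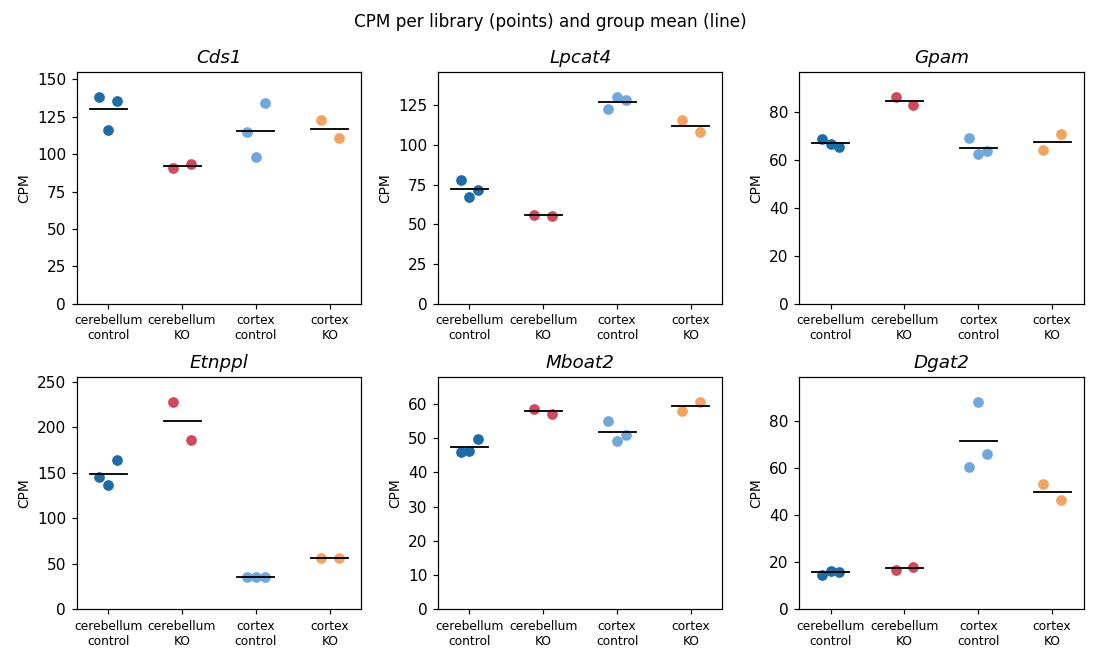
CPM in each library (points) with the group mean (line) for 6 genes. In cerebellum Cds1 and Lpcat4 lie lower and Gpam, Etnppl and Mboat2 higher in both KO libraries than in any control, and in cortex Dgat2 is lower in both KO libraries, with control 2 the highest point at 88.3 CPM.

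Promoter sequences are shown for the 3 members that passed the adjusted p in KO cerebellum and for Etnppl, the member with the smallest p in cortex. RefSeq windows on GRCm38.p6, running from 250 bases before to 50 bases after a start, were at hand for 33 of the 39 genes. The windows are chr19:55127189-55127488 (minus strand) for Gpam, chr3:130617198-130617497 (plus) for Etnppl, chr5:101764880-101765179 (plus) for Cds1 and chr2:112239591-112239890 (plus) for Lpcat4. The Lpcat4 window lies wholly within the GENCODE gene, which starts at 112239468, so it does not cover the bases before that start. The windows of Gpam, Etnppl and Cds1 span the GENCODE gene starts. Capitals mark matches, on either strand, to 5 motifs: the CCAAT box (CCAAT), the E-box (CACGTG), a sterol regulatory element (TCACNCCAC), the GC box (GGGCGG) and the TATA box (TATAAA). None of the marked matches overlapped another.
Gpam: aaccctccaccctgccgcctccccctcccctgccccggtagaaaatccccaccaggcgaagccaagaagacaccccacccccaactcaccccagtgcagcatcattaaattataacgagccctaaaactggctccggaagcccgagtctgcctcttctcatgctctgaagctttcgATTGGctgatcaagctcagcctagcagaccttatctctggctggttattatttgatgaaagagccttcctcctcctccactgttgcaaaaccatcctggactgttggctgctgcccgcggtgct
Etnppl: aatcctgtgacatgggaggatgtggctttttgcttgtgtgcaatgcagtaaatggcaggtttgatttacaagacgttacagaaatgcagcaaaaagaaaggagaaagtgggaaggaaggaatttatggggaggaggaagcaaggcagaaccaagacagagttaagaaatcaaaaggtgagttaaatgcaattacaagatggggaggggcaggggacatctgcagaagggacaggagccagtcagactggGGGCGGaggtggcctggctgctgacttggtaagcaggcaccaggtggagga
Cds1: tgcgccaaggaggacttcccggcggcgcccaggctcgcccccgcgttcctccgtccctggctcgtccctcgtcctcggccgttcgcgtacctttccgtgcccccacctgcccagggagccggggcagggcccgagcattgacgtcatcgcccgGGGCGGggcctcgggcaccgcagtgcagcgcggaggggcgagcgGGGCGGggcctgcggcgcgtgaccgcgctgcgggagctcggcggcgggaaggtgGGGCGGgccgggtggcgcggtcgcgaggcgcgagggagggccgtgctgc
Lpcat4: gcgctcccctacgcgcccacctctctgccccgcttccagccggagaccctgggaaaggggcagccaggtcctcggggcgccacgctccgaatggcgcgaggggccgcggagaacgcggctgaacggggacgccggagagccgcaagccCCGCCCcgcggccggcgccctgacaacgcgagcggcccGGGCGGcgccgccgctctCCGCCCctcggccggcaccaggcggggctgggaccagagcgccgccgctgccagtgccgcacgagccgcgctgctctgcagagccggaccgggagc

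The Cds1 and Lpcat4 windows each held 3 GC boxes, and their GC content was 79.0% in both. Gpam held 1 CCAAT box and no GC box, with 55.7% GC, and Etnppl held 1 GC box, with 49.3% GC. A GC box was found in 24 of the 33 member windows and in 35.7% of all 32851 RefSeq windows, and a CCAAT box in 15 and in 37.4%. The E-box was in 3 member windows (Lpin2, Lpin3 and Crls1) and in 7.15% of all windows. The sterol regulatory element as written was in 1 member window, that of Pcyt1a, and in 1.24% of all, and the TATA box in 2 (Lpcat2 and Chkb) and in 13.6%. Members were given 1 window each, the one nearest the 5' end of the gene, whereas all windows were counted without such a choice. The 2 shares are therefore not like for like. These matches describe letters in the windows and were not tied to the KO differences.

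The other roles in cerebellum had no called member. The 5 lysophosphatidic acid acyltransferases had log2 changes above 0 in 5 of 5 genes with a median of 0.07, the highest being Agpat2 at 0.59 (95% interval -0.14 to 1.33), which was counted at only 1.0 to 2.3 CPM. Both diacylglycerol acyltransferases were slightly above 0, at 0.06 for Dgat1 and 0.15 for Dgat2, with intervals that included 0. In the phosphatidylserine branch Ptdss1 was at 0.10, Ptdss2 at -0.16 and the mitochondrial decarboxylase Pisd at -0.10, none called. The 7 choline genes had a median log2 change of 0.04, and their interval limits ran from -0.29 to 0.44 for all but Pemt, whose level was under 3 CPM. Across the 39 genes 9 had both KO libraries above all controls and 4 had both below, against 15.4% and 14.6% of all genes.

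**Figure D3:**
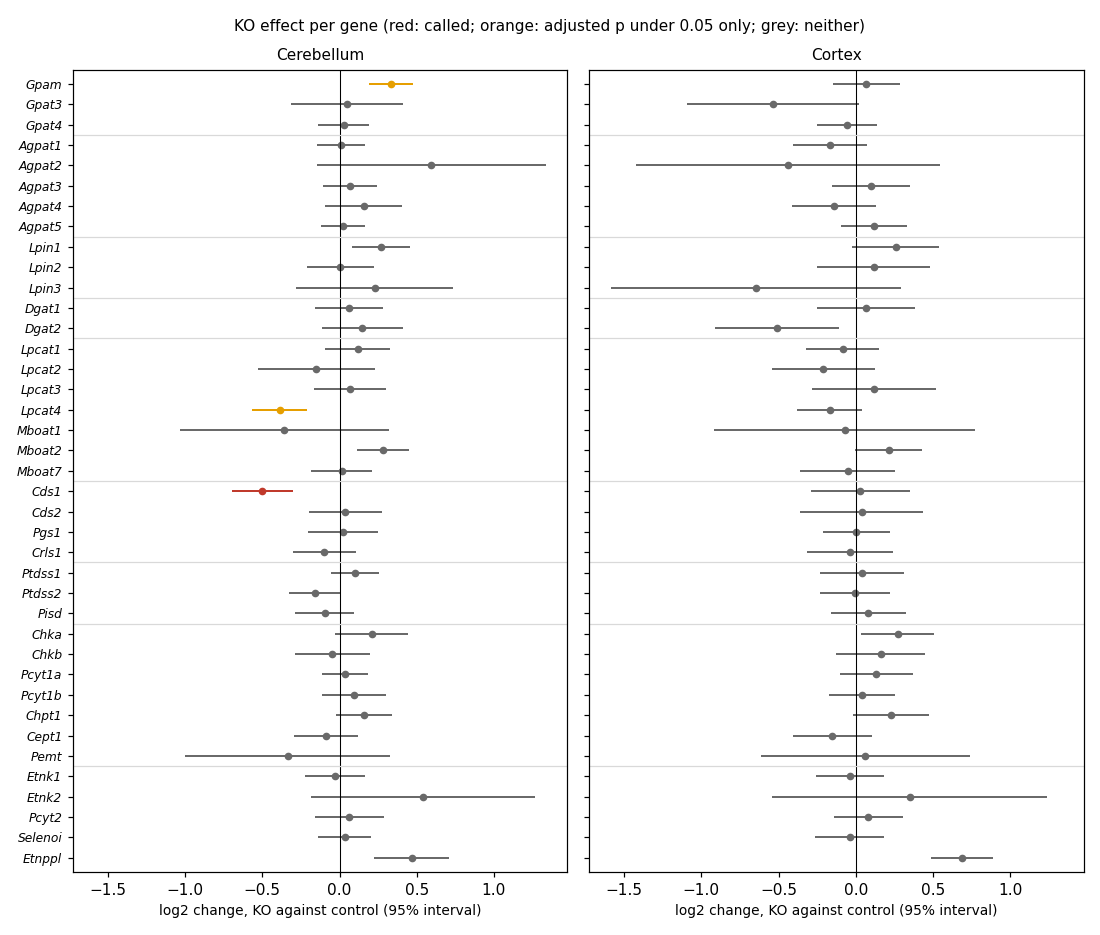
Log2 change of KO against control with its 95% interval for the 39 genes, in cerebellum (left) and cortex (right), with grey lines between role groups. In cerebellum Cds1 is the called gene (red) and Gpam and Lpcat4 pass the adjusted p only (orange), whereas no gene is called in cortex, where Etnppl has the highest value at 0.69.

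Of the neighboring genes with enough counts to test, 19 of lipid turnover and 17 of supply and side branches, 3 were called in cerebellum, all lower. Over all genes 1.04% were called lower and 0.514% higher. Mogat1, Mogat2 and Mboat4 had too few counts. Dagla, the diacylglycerol lipase that makes the endocannabinoid 2-arachidonoylglycerol, was at 106, 85.3 and 107 CPM in controls and 52.7 and 54.8 CPM in KO, a log2 change of -0.89 (SE 0.104, adjusted p = 0.00463). Far2, a fatty acyl-CoA reductase of the ether lipid route, was at 58.2, 54.0 and 57.6 CPM against 35.5 and 33.6 CPM, a log2 change of -0.72 (SE 0.0760, adjusted p = 0.00318). Lpgat1, an acyltransferase of lysophosphatidylglycerol, was at 329, 267 and 322 CPM against 194 and 212 CPM (log2 change -0.60, SE 0.101, adjusted p = 0.0213), and its adjusted p was between 0.0644 and 0.146 when any library but control 2 was left out. In all 3 genes the KO libraries were below every control. The Purkinje cell markers, whose median log2 change was -1.19, moved in the same libraries and direction as Cds1, Lpcat4 and these 3 genes.

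In cortex none of the 39 genes was called by edgeR, and the share called was 0% of the 19202 genes tested. The mutated gene Snx14 was not called there either (log2 change -1.36, edgeR adjusted p = 0.754), so a missing call does not show a missing change. At an unadjusted p under 0.05 there were 4 members against 5.93% of all genes. DESeq2 called 45 genes in cortex, of which 1 was a member, Etnppl. The median log2 change was 0.04 over the members, with 22 above 0, and 0.00 over all genes. Both KO libraries lay above every control for 7 members and below for 8, against 10.5% and 14.2% of all genes.

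Etnppl was at 35.6, 35.0 and 34.9 CPM in control cortex and at 55.9 and 56.4 CPM in KO cortex, so the values within each group nearly coincided and the groups were apart. The log2 difference was 0.69 (SE 0.0848, 95% interval 0.49 to 0.89), with an edgeR adjusted p of 0.636 and a DESeq2 adjusted p of 0.000236. Without control 2 the edgeR adjusted p was 0.00334 at the same log2 difference of 0.69. This was the only fit with a library left out in which Etnppl passed in cortex. Over those fits its log2 difference was 0.68 to 0.70. The 10 astrocyte markers summed to 3814 to 5110 CPM in control cortex and 5442 to 5746 CPM in KO cortex, with none called and a median log2 change of 0.31.

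Dgat2, which carries out the last step of triglyceride synthesis, was at 60.4, 88.3 and 66.1 CPM in control cortex and at 53.1 and 46.4 CPM in KO cortex, with no overlap. Its log2 difference was -0.51 (SE 0.169, adjusted p = 0.773), and -0.33 without control 2. The striatal neuron markers followed a similar order in these libraries, with sums of 2025, 4491 and 1840 CPM in the control libraries and 1148 and 609 CPM in the KO libraries. All 10 striatal markers had log2 changes under 0, with a median of -1.72 and none called. Dgat1, the other enzyme of this step, was level at 22.6, 23.8 and 19.3 CPM in controls and 22.8 and 22.7 CPM in KO.

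The remaining cortex members with small p were the choline kinase Chka, at 67.8, 73.5 and 76.9 CPM in controls and 91.9 and 81.9 in KO (log2 difference 0.27, SE 0.0982, adjusted p = 0.796), and Mboat2, at 55.1, 49.2 and 50.9 against 58.0 and 60.6 CPM (0.21, SE 0.0902, adjusted p = 0.834). Gpat3 followed at 6.77, 8.20 and 5.46 against 3.97 and 5.40 CPM (-0.53, SE 0.237, adjusted p = 0.860), and 37.4% of its exonic length was shared with another gene, so that some of its counts may belong there. Without KO 1 the log2 difference was 0.18 for Chka and -0.33 for Gpat3. The 3 genes that passed the adjusted p in cerebellum had cortex log2 changes of 0.03 for Cds1 (95% interval -0.29 to 0.34), -0.17 for Lpcat4 (-0.37 to 0.03) and 0.07 for Gpam (-0.14 to 0.28). By role, the 7 choline genes had a median log2 change of 0.13, with 6 above 0, and the 7 lysophospholipid acyltransferases one of -0.07, with 2 above 0. None of the neighboring pathway genes was called in cortex.

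A difference in KO effect between cerebellum and cortex was tested as the difference of the 2 log2 changes over all 10 libraries. No member passed an adjusted p under 0.05 in edgeR or in DESeq2, against 0.102% of 20614 genes (21 genes) in edgeR, and 3 members were at an unadjusted p under 0.05 against 8.28%. These were Dgat2, whose log2 change was 0.68 higher in cerebellum (SE 0.210, adjusted p = 0.343), Cds1 (-0.51, SE 0.174, adjusted p = 0.400) and Gpam (0.29, SE 0.104, adjusted p = 0.446, with a difference of 0.19 without KO 1). For Etnppl the difference was -0.20 (95% interval -0.51 to 0.11). Since each mouse gave both tissues, the mouse was also fitted as a block, which raised the number of genes called from 21 to 128 and left 0 members called, with adjusted p of 0.0940 for Cds1 and 0.0976 for Dgat2. A KO effect that differed between the tissues was not shown for any of the 39 genes.

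More of the genes were called between the tissues than between genotypes. In control mice 16 of the 39 genes were called between cerebellum and cortex, 7 higher in cerebellum against 19.1% of all genes and 9 lower against 21.5%, so the share called in each direction was close to that of all genes. The median log2 difference was 0.02 over the members and 0.02 over all genes. With the mouse as a block 16 members were again called. Over all genes 7871 were called in the main fit and 6390 to 10349 over the alternatives, the block among them.

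**Figure D4:**
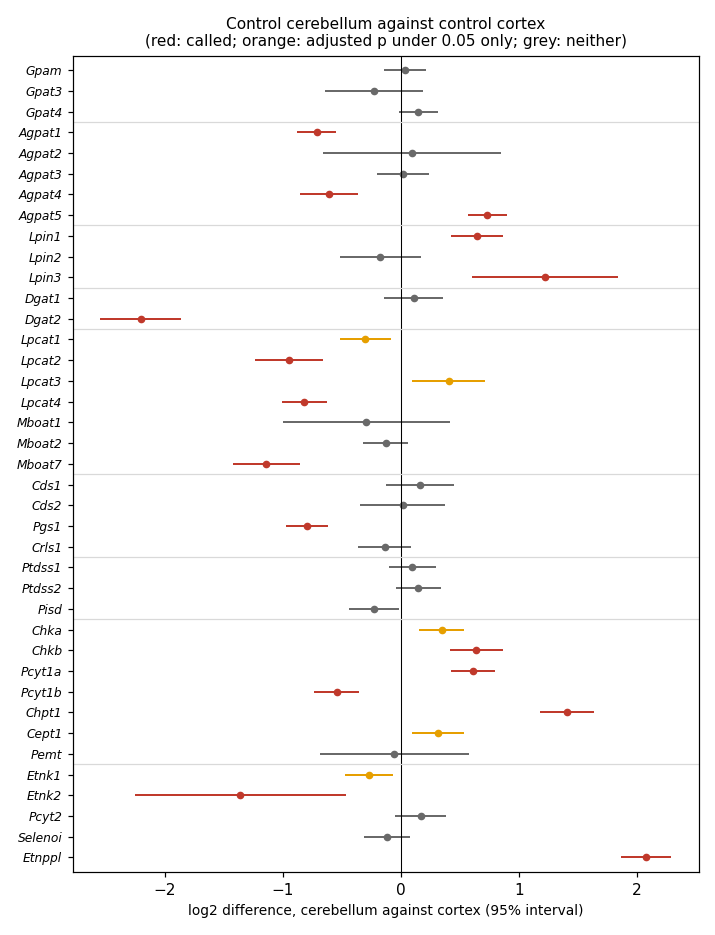
Log2 difference of control cerebellum against control cortex with its 95% interval for the 39 genes, ordered by role. Called genes (red) run from Dgat2 at -2.20 to Etnppl at 2.08, and the glycerol phosphate acyltransferases and the phosphatidylserine branch hold no called gene.

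The largest differences were at the triglyceride and ethanolamine ends. Dgat2 was at 14.7, 16.3 and 16.0 CPM in cerebellum and 60.4, 88.3 and 66.1 CPM in cortex, a log2 difference of -2.20 (SE 0.146, adjusted p = 4.05e-06), while Dgat1 differed by 0.11 (95% interval -0.13 to 0.35). Etnppl was at 145, 137 and 164 CPM in cerebellum and 35.6, 35.0 and 34.9 CPM in cortex, a difference of 2.08 (SE 0.0885, adjusted p = 3.11e-07). Both were apart in every library of the 2 tissues. In the ethanolamine arm Etnk2 was lower in cerebellum, at 5.2, 2.4 and 2.8 against 11.3, 4.7 and 10.9 CPM, with overlapping libraries (log2 difference -1.36, SE 0.388, adjusted p = 0.0167, and 0.166 without control 3).

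Of the 7 choline genes 3 were called higher in cerebellum, 1 lower and 3 not called, against 19.1% and 21.5% of all genes called higher and lower. Chpt1, the cholinephosphotransferase that completes phosphatidylcholine, was at 157, 138 and 161 CPM in cerebellum and 62.8, 55.9 and 52.6 CPM in cortex, a log2 difference of 1.41 (SE 0.0964, adjusted p = 4.84e-06). The paralogs Pcyt1a and Pcyt1b, which make CDP-choline, differed in opposite directions. Pcyt1a was higher in cerebellum, at 57.8, 58.4 and 57.7 against 35.1, 40.0 and 38.2 CPM (0.61, SE 0.0786, adjusted p = 0.000219). Pcyt1b was lower, at 31.7, 32.2 and 29.4 against 43.7, 46.3 and 45.7 CPM (-0.54, SE 0.0787, adjusted p = 0.000453), and its difference was -0.49 without control 3. Chkb was also higher in cerebellum (0.64, SE 0.0945), but 57.6% of its exonic length was shared with an overlapping gene.

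Of the 7 lysophospholipid acyltransferases 3 were called lower in cerebellum, 0 higher and 4 not called, against 21.5% and 19.1% of all genes called lower and higher. Lpcat3 differed the other way, with every cerebellum library above cortex (0.40, SE 0.133, adjusted p = 0.0302), under the fold minimum. Mboat7, which places arachidonic acid on lysophosphatidylinositol, was at 65.6, 56.6 and 65.0 CPM in cerebellum and 148, 113 and 149 CPM in cortex (-1.14, SE 0.121, adjusted p = 7.08e-05). Lpcat4 had 77.9, 67.5 and 71.9 against 123, 130 and 128 CPM (-0.82, SE 0.0789, adjusted p = 4.03e-05), and the poorly expressed Lpcat2 differed by -0.95. No library of these 3 genes in cerebellum reached the lowest cortex library.

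Lysophosphatidic acid acyltransferases split, with Agpat1 lower in cerebellum (-0.71, SE 0.0700), Agpat4 lower (-0.61, SE 0.104) and Agpat5 higher (0.73, SE 0.0686), although 18.9% of the exonic length of Agpat5 was shared with another gene. Agpat3, the highest of the group, was at 260, 238 and 259 CPM in cerebellum and 263, 222 and 260 CPM in cortex, a log2 difference of 0.02 (95% interval -0.19 to 0.23). Of the lipins, Lpin1 was higher in cerebellum at 40.2, 42.9 and 43.7 against 25.6, 25.4 and 29.8 CPM (0.64, SE 0.0938, adjusted p = 0.000467), and so was Lpin3 (1.22, SE 0.268) at under 3 CPM. Pgs1, which makes phosphatidylglycerol phosphate for cardiolipin, was lower in cerebellum at 46.1, 45.1 and 47.4 against 83.3, 75.7 and 80.9 CPM (-0.80, SE 0.0732, adjusted p = 2.95e-05).

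Of the neighboring pathway genes 4 were called higher and 5 lower in cerebellum. These were 3 higher and 3 lower of 19 turnover genes tested, and 1 higher and 2 lower of 17 supply and side branch genes. Over all genes 19.1% were called higher and 21.5% lower, so these calls do not set the neighboring genes apart. The largest difference was in Mgll, the lipase that degrades 2-arachidonoylglycerol, at 83.3, 85.1 and 77.2 CPM in cerebellum and 270, 237 and 265 CPM in cortex (-1.66, SE 0.0835, adjusted p = 7.90e-07). The others lower in cerebellum were Lclat1 (-0.86), Pla2g15 (-0.76), Gpd1l (-0.63) and Pld2 (-0.53), and those higher were Gpd1 (0.89), Pnpla2 (0.69), Pnpla7 (0.56) and Pla2g16 (0.50). Pnpla7 lost its call without control 1 (adjusted p = 0.130) or control 3 (0.0855), and so did Pla2g16 (0.0773 and 0.143). Pld2 lost its call without control 1 (adjusted p = 0.0531) or control 2, where its log2 difference was -0.46. Gpd1 and Gpd1l, which both form glycerol 3-phosphate, thus differed in opposite directions.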

How the data were processed

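RNA-seq was measured in 10 libraries of 5 mice. The authors mapped the reads to the mouse genome GRCm38 and counted them over GENCODE M21 genes with featureCounts (Subread 2.0.1), and deposited 1 table of raw counts per library, with no normalization. Counting was not by strand and reads could be assigned to overlapping genes, so such genes may share counts. Tables held 81881 entries, of which 26345 were not mouse genes (0.160% to 0.926% of counts) and were left out. Genes were tested from the counts with the edgeR quasi-likelihood test (edgeR 4.0.16, limma 3.58.1, R 4.3.3), with TMM scaling, a count minimum of 10 in filterByExpr and Benjamini-Hochberg adjustment over all genes tested. A call needed an adjusted p under 0.05 and an absolute log2 change over 0.5, or the adjusted p alone for the difference between tissues. SE is the log2 change divided by the square root of F. CPM used 1 TMM scale over all libraries, and TPM used the exonic lengths in the tables. DESeq2 1.42.0, other scalings, no filter, blocks and libraries left out 1 at a time were alternatives. The tests were run on simulated counts with the same spread for every gene and no mouse effect. That check does not cover outlying libraries or 2 tissues from the same mouse, as in these data.

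The 39 genes, the pathway and marker lists and the tests were chosen with earlier results of these data known. Any member could be named with its level. Full statistics were given for called members (the 10 with the smallest p where more were called), or the 5 with the smallest p where fewer than 5 were called, and called pathway genes were named. Statistics of the further called members between the tissues, of Lpin1 in cerebellum and of members given by interval were added after their values were seen. Deviations of cerebellum and cortex from the same mouse correlated at 0.164 to 0.370, and the labels give the same animal for both tissues. The main tests between tissues were nevertheless not paired by mouse, and the mouse as a block was an alternative. The precision of the 3 controls and 2 KO mice is set by the number of mice, and at 16088310 counts or more per library counting error was small for most members.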

Additional observations from a re-analysis of the deposited data

How the results depend on the processing

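The small number of mice and the mixed control genotypes limit these results, and members under 3 CPM were measured with wide intervals. The 1 member called in cerebellum became 0 with DESeq2 size factors, library totals only, DESeq2's test, the replicate block by number or all 10 libraries in 1 fit, and 3 with no fold minimum, and it ranged from 0 to 1 with a library left out. The call made without KO 2 was Etnppl, not Cds1. Over all genes in cerebellum the 302 calls became 842 with no filter on low counts and 181 with the replicate block, and ranged from 133 (without control 1) to 400 (without control 2) with a library left out. In cortex the 0 members called became 2 with no filter and 1 with DESeq2's test, and ranged from 0 to 1, the 1 being Etnppl without control 2. The 0 genes called in cortex became 380 with no filter, 45 with DESeq2's test and 3 with the replicate block, and ranged from 0 to 98, the highest without control 2. For the difference between tissues the 0 members became 2 with no filter, and the 21 genes became 599 with no filter, 221 with DESeq2's test and 128 with the replicate block by mouse, and ranged from 0 to 198, again highest without control 2. The causes of these shifts were not tested. Same-numbered KO and control mice shared only a number, their deviations correlating at -0.0353 to 0.114, and the replicate block by number gave Cds1 a log2 change of -0.46 with an adjusted p of 0.119. Between the tissues of control mice the 16 member calls ranged from 14 to 21 over all alternatives, and the 7871 calls over all genes from 6390 to 10349. Scaling by library totals alone shifted the median of all genes by 0.11 (log2) and gave 15 member calls. Of 451 single-gene alternatives 412 left the call as it was, 10 made it stronger, 29 made it weaker and 0 reversed it. A gene not called in the main fit counted as unchanged where it stayed uncalled. Gpam and Lpcat4 in cerebellum counted so, although their edgeR adjusted p was 0.209 and 0.171 with the replicate block. Cds1 kept its cerebellum call at the fold minimum only with no filter on low counts and without control 2.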
